A study of Mus musculus with 3 samples.

Results

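The genes of a passage 18 culture of immortalized mouse skin lymphatic endothelial cells were compared with those of a passage 13 culture, 1 array a side. Each gene was represented by the probe set, among those annotated to that gene alone, that was brightest on average over the 3 arrays of the series. A gene was a member of the comparison when its signal intensity lay above 36 (log2 5.17) on at least 1 of both arrays. That left 10675 of 18193 genes. A member above 36 on 1 array alone had its higher value on that array by this rule, whatever its list. This held for 364 members at passage 18 and 315 at passage 13. For every member the log2 intensity at passage 13 was subtracted from that at passage 18, so a positive difference means a higher value at passage 18. With 1 culture a side no test was possible, and all differences are differences between these arrays with no measure of the spread between cultures.

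The cells came from the skin of H-2Kb-tsA58 mice (ImmortoMice), described as normal and healthy, and were isolated by FACS. In these mice the interferon-inducible H-2Kb promoter drives a large T antigen of SV40 that is unstable at body temperature, so the passage 13, passage 14 and passage 18 cultures all share that transgene. All were grown at 33 °C with IFNγ on collagen and fibronectin, in medium with serum, endothelial mitogen and heparin, and then kept at 37 °C for 3 days without IFNγ, which serves to remove the large T antigen. The labels do not say whether the cultures descend from 1 isolate, and give no animal number, age or sex. The passage 14 culture is given beside the comparison as an added array.

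Lymphatic endothelium lines the vessels that drain fluid and immune cells from tissue. Its identity rests on the transcription factor Prox1 and on surface proteins such as the VEGF-C receptor Flt4, the glycoprotein podoplanin (Pdpn) and the hyaluronan receptor Lyve1, which is laid over an endothelial programme shared with blood vessels. Endothelial cells in long culture can lose vessel-specific transcripts and take up matrix genes of mesenchymal cells, and Lyve1 is known as one of the more labile lymphatic markers in culture. The labelled cell type was borne out in part: on the passage 18 array Pdpn stood at 3715, Flt4 at 920 and Cdh5 at 1301, while Prox1 was dim at 48.6 and Lyve1 stood at 163.

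The arrays were on a like scale, with median intensities of 25.7, 26 and 26.3 at passages 13, 14 and 18 and 95th percentiles of 1367, 1363 and 1365. The number of genes above the minimum of 36 lay between 10282 and 10360 per array. The Gapdh control probe sets gave a 3'/5' intensity ratio of 8.59 at passage 13, 7.10 at passage 14 and 19.4 at passage 18, and the Actb ratio was 1.18, 1.2 and 1.42. The Gapdh 3' probe set was nearly level at 11740, 11260 and 11500, so the higher ratio came with a lower 5' value (1367, 1585 and 594). This measure of how far amplified RNA reaches towards the 5' end differed between both arrays compared here, and its part in the differences below was not tested.

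Most genes differed little. The median difference was -0.0040, quartiles were -0.27 and 0.26, and 8668 members (81.2%) lay within 1.5-fold. At passage 18, 410 genes (3.84%) were at least 2-fold higher and 312 (2.92%) at least 2-fold lower, 722 in all (6.76%). At least 4-fold differences numbered 58 higher and 21 lower as read, and 30 and 14 with every value under 36 raised to 36. At least 8-fold differences numbered 7 and 3 as read, and with raised values 1 higher (Cemip) and 1 lower (Lyve1). The same count for passage 14 over passage 13, which shares the passage 13 array, was 323 higher (3.03%) and 477 lower (4.47%), or 7.49% in either direction. For passage 18 over passage 14, among 10796 genes, it was 959 higher (8.88%) and 706 lower (6.54%), or 15.4% in either direction. By these counts the passage 18 culture differed from passage 13 about as much as the passage 14 culture did, and passages 14 and 18 differed most.

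**Figure D1:**
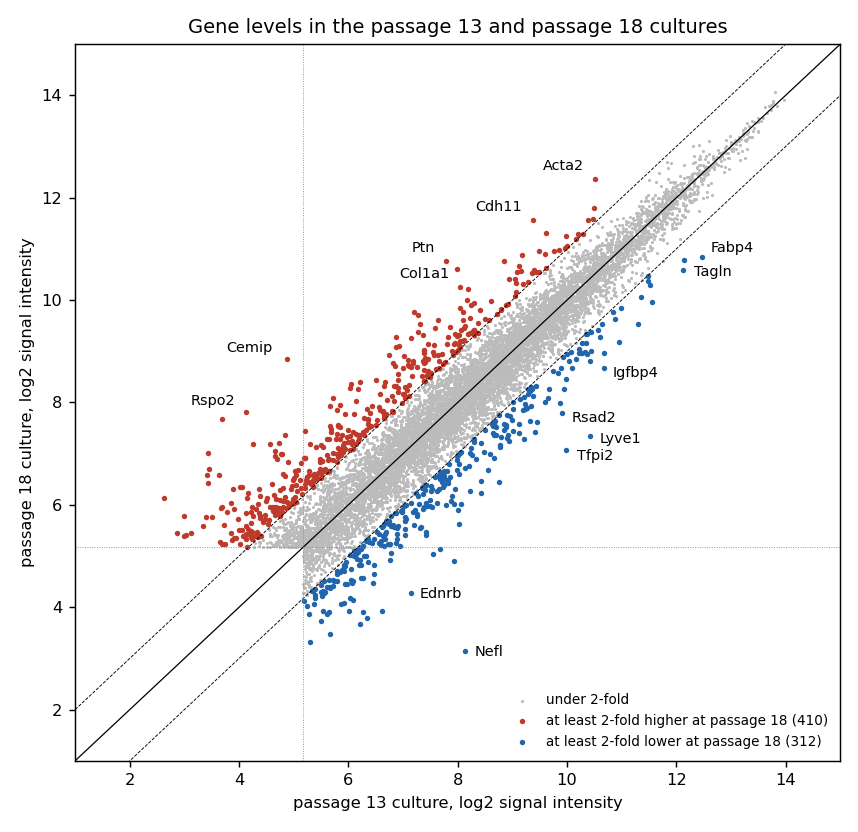
Each point is 1 of the 10675 members, with its log2 signal intensity in the passage 13 culture across and in the passage 18 culture up; dashed lines mark 2-fold, dotted lines the minimum of 36 (log2 5.17). The 410 genes at least 2-fold higher and the 312 at least 2-fold lower lie outside the dashed lines, more of them among dim genes than among bright ones.

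Dim genes carried a larger share of the 2-fold differences. Among the 1590 members with a mean log2 intensity under 6 the differences had an SD of 0.760 across genes and 15.1% were past 2-fold, and among the 822 above 11 the SD was 0.290 and 0.730% were past 2-fold. Of the 722 genes, 279 higher and 230 lower ones had values above 36 on both arrays. The others had a dim side that sets only a bound, and for those a fold is given below as at least the bright value over 36. With every value under 36 raised to 36, 321 genes were higher and 254 lower by at least 2-fold.

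A second probe set of the same gene gave a check within the same arrays. Of the higher genes, 184 had another probe set above the minimum, which pointed the same way for 183 (99.5%) and was itself past 2-fold for 119. Of the lower genes, 88 had one, and it pointed the same way for 86 (97.7%) and was past 2-fold for 54. Over all 5136 members with such a probe set the direction was shared by 71.6%. Probe sets of 1 gene share the RNA and the array, so this speaks to probe behaviour and not to the spread between cultures.

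At the edge of the minimum, Kcnk6 (36.01 at passage 13, 19.32 at passage 18) and Klf5 (32.5 and 36.02) were just inside, and Rbm19 (35.64 and 36) and Ankrd39 (36 and 23) just outside.

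Cemip, Cdh11, Nefl and Lyve1 were chosen to mark this comparison with earlier results of these data known, so their values are a description. Cemip, which takes part in the breakdown of hyaluronan, had an intensity of 29.5 at passage 13, 11.5 at passage 14 and 459 at passage 18. It was under the minimum on both earlier arrays and at least 12.8-fold higher at passage 18 than at passage 13. A second Cemip probe set read 25.9, 33.6 and 59.2, the same order of passage 18 over the others with a much smaller step. Cdh11, a cadherin of mesenchymal cells, stood at 664, 112 and 3023. Passage 18 was highest and passage 14 lowest, with 4.56-fold between passages 13 and 18, and its second probe set read 298, 31.4 and 1394.

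Lyve1 stood at 1375 at passage 13, 2929 at passage 14 and 163 at passage 18. The passage 18 culture was thus the lowest of the cultures, 8.44-fold under passage 13, and a second probe set read 951, 2103 and 100.4. In a culture profiled as a whole, fewer Lyve1-positive cells and less Lyve1 RNA per cell cannot be told apart, and that holds for every gene below. Nefl, the light neurofilament subunit, stood at 281, 189 and 8.86. It was above the minimum on both earlier arrays and under it at passage 18, at least 7.81-fold lower than at passage 13. A second probe set was dimmer, at 49.1, 54.6 and 9.99, and so gives a much lower bound in the same direction.

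Among genes above the minimum on both arrays, the largest step upwards was that of Ptn (pleiotrophin, a heparin-binding growth factor), at 220, 140 and 1728 for passages 13, 14 and 18, or 7.86-fold over passage 13. Aldh1a7 (253, 77.1 and 1553) was 6.15-fold and its neighbour Aldh1a1, a retinaldehyde dehydrogenase that makes retinoic acid (158, 36 and 743), was 4.69-fold higher. Both were lowest at passage 14 and highest at passage 18. Id4, an inhibitor of basic helix-loop-helix factors (155, 353 and 836), was 5.38-fold and Fzd2, a Wnt receptor (117, 156 and 622), 5.32-fold higher. These had passage 14 in between.

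Col1a1, the main chain of type I collagen, was 4.67-fold higher (263, 92.8 and 1228). The other genes in the leading 15 were Lurap1l (5.96-fold), the Src-related kinase Frk (5.14-fold), the paired-box factor Pax9 (4.96-fold), Hoxa10 (4.80-fold), the Arf exchange factor Psd3 (4.79-fold), the carboxypeptidase Cpa6 (4.72-fold), the actin-binding Shroom3 (4.65-fold), the calcium sensor Vsnl1 (4.57-fold) and Cdh11. Of these 15, Cpa6 was closest to the minimum at passage 13, at 36.8. The second-brightest probe set gave smaller log2 differences for Fzd2 (0.68 in place of 2.41), Pax9 (0.97 in place of 2.31) and Shroom3 (0.93 in place of 2.22).

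The next genes were at or under the minimum at passage 13. After Cemip the brightest at passage 18 was Rspo2, a secreted amplifier of Wnt signalling, at 17.4, 7.83 and 224, at least 6.21-fold higher. Elmod1 (13.0, 5.60 and 205) was at least 5.71-fold higher, and Gas1, a hedgehog co-receptor (28.5, 95.9 and 165), at least 4.59-fold. Gas1 was already above the minimum at passage 14, unlike Rspo2 and Elmod1. The others were AU021092 (at least 4.08-fold), Col6a2 (at least 4.06-fold), the phosphatase subunit Ppp2r2b (at least 4.05-fold), the lymphangiogenic ligand Vegfd (at least 3.67-fold), the transcriptional coactivator Eya4 (at least 3.56-fold) and the orphan receptor Gpr85 (at least 3.54-fold). Before any bound, the second-brightest probe set gave log2 differences of 0.73 for Gas1 (2.54 as read from the brightest), 1.07 for Gpr85 (2.23) and 1.78 for Col6a2 (2.62). The median over probe sets was 2.01 for Rspo2 (3.68), 1.63 for Ppp2r2b (2.94) and 1.80 for Vegfd (2.40).

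Downwards, the protease inhibitor Tfpi2 followed Lyve1, at 1015 at passage 13, 323 at passage 14 and 135 at passage 18, or 7.52-fold lower. Stfa3, a stefin that inhibits cysteine proteases, was 5.30-fold lower (261, 18.0 and 49.2), and Slc38a4, an amino acid transporter, 4.04-fold (172, 25.5 and 42.6). Those 2 genes were lowest at passage 14, not at passage 18. Tfec, a transcription factor of the MiT family, stood at 431, 589 and 87.4 (4.93-fold), and Igfbp4, which binds insulin-like growth factors, at 1627, 2688 and 408 (3.98-fold). Both were highest at passage 14 and lowest at passage 18.

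Of the 15 lower genes, the interferon-induced Cmpk2 (4.60-fold), Rsad2 (4.37-fold), Zbp1 (4.13-fold) and Oas3 (3.82-fold) are described with their list below. Ch25h, the cholesterol 25-hydroxylase (683, 830 and 170), was 4.01-fold lower and Gimap5, a GTPase of immune cells (255, 392 and 59.7), 4.28-fold. The rest were Ttc9 (3.90-fold), Arhgap25 (3.88-fold) and the adhesion molecule Pvr (3.80-fold). For Arhgap25 the median over probe sets was -0.90 on the log2 scale, against -1.96 for the brightest.

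Of the genes under the minimum at passage 18, Lrrc3b followed Nefl (246, 37.9 and 30.0, at least 6.82-fold lower). The interferon-inducible Ifi209 (205, 262 and 35.3) was at least 5.69-fold and the polysialyltransferase St8sia4 (186, 711 and 32.8) at least 5.18-fold lower. St8sia4 was by far the brightest at passage 14, whereas Lrrc3b was near the minimum there. The endothelin receptor Ednrb was at least 3.91-fold lower, Rabac1 at least 3.04-fold, Peli2 at least 3.02-fold, Ms4a6d at least 2.73-fold, and Trp53i11 and Rtl8c at least 2.46-fold each. For Ednrb the second-brightest probe set gave a log2 difference of -1.55, against -2.85 for the brightest, both before any bound.

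**Figure D2:**
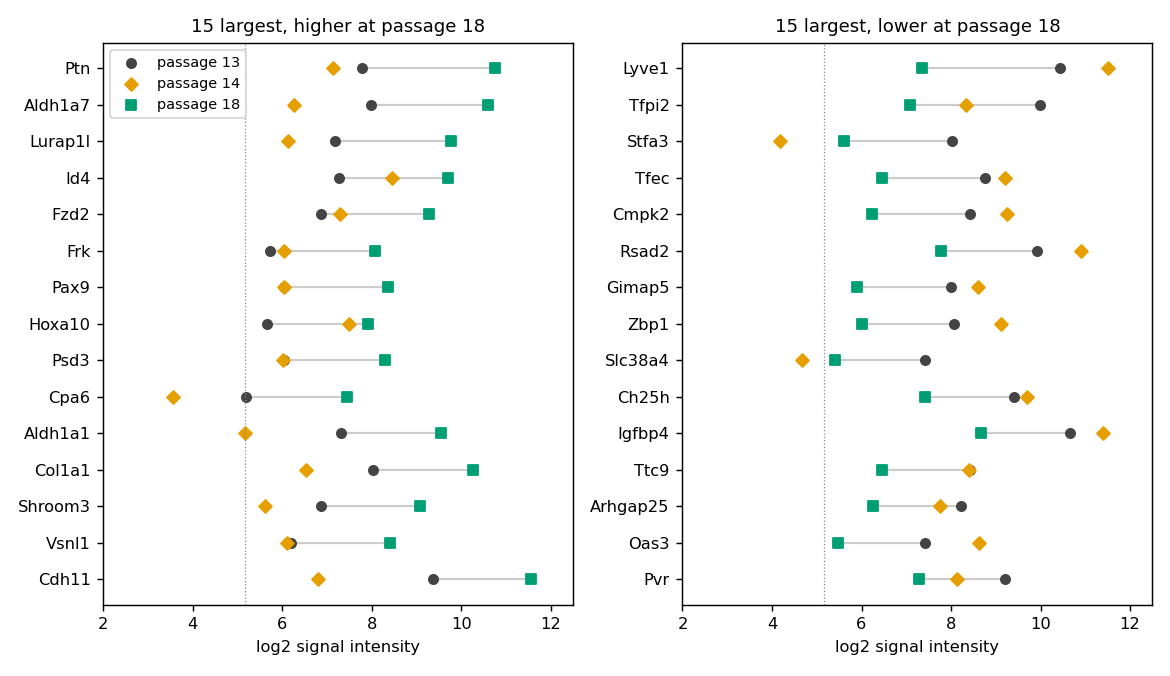
Log2 signal intensity of the 15 genes with the largest differences in each direction among genes above 36 on both arrays, 1 marker per culture; the dotted line is the minimum (log2 5.17). Passage 14 markers lie on either side of passage 13, from Cdh11 (112 at passage 14, 664 at passage 13) to Lyve1 (2929 and 1375).

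The genes of 36 common endothelial markers were lower as a list. Of 35 members 30 had the lower value at passage 18, 9 were at least 2-fold lower (8 with values under 36 raised to 36) and 0 at least 2-fold higher, beside 2.92% and 3.84% of all members, and the median difference was -0.63. Lmo2, a transcriptional adaptor of endothelial and blood cells, stood at 819, 870 and 307 at passages 13, 14 and 18 (2.67-fold lower). Cd93, a surface glycoprotein, stood at 1872, 3963 and 787 (2.38-fold), and Egfl7, a secreted endothelial factor, at 950, 996 and 408 (2.33-fold). Passage 18 was the lowest of the cultures for these 3 genes.

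Nos3, the endothelial nitric oxide synthase, went from 65.8 to 23.1 and was at least 1.83-fold lower, and Rasip1 was at least 2.06-fold lower. Esam (2.18-fold), Robo4 (2.14-fold), Cldn5 (2.13-fold) and Adgrl4 (2.05-fold) completed the list past 2-fold. The defining markers moved less: VE-cadherin (Cdh5) stood at 1705 and 1301, Pecam1 at 1728 and 1005, Tek at 720 and 515 and Erg at 2458 and 1472. All were far above the minimum at passage 18. Cd34 (504 at passage 13 and 832 at passage 18) and Tal1 (227 and 310) were among the few with the higher value at passage 18, both by less than 2-fold. The summed intensity of the list was 35442 at passage 13 and 24522 at passage 18, and the median difference of passage 14 over passage 13 was 0.24.

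Lymphatic markers were split in direction, with more members past 2-fold downwards than upwards. Of 23 members among 32 measured genes, 12 were higher and 11 lower, with a median of 0.01 that was -0.28 without probe sets open to cross-hybridisation. At least 2-fold lower were 4 members and at least 2-fold higher 1, beside 2.92% and 3.84% of all members. Lyve1 was joined past 2-fold by Sox18, a transcription factor upstream of Prox1 (599, 1236 and 235, 2.55-fold lower), the scavenger receptor Stab1 (416, 215 and 164, 2.54-fold lower) and Flt4 (2039, 1869 and 920, 2.22-fold lower). Maf, a transcription factor, was the one gene of the list at least 2-fold higher (167, 65.7 and 511, 3.06-fold). Prox1 itself was dim throughout, at 73.4, 34.6 and 48.6, and Pdpn was bright, at 4615, 1933 and 3715. For both, passage 14 had the lowest value and passage 18 lay between.

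Of 14 members of the blood endothelial list, Plvap, the diaphragm protein of fenestrae (1315, 823 and 496), was 2.65-fold lower, the ligand apelin (Apln) 2.42-fold lower and Esm1 2.13-fold lower. Nrp1, a co-receptor for VEGF and semaphorins (1142, 664 and 2348), was 2.06-fold higher and Hey2, a Notch target, at least 2.5-fold higher. The median was -0.33, but it turned to 0.38 with the second-brightest probe sets and to 0.03 without probe sets open to cross-hybridisation, so the list has no settled direction. In the junction list, with 21 members and a median of -0.11, Nectin2 (1008, 762 and 352, 2.86-fold) and the tight-junction protein Cgnl1 (1051, 774 and 448, 2.35-fold) were lower. Claudin 1 (Cldn1), a claudin of epithelia, was at least 2.08-fold higher (18.0, 25.3 and 74.9).

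Genes of the fibroblast list were higher at passage 18. Of 22 measured genes 16 were members, 14 had the higher value at passage 18, and 9 were at least 2-fold higher (8 with values under 36 raised to 36) against 0 lower, beside 3.84% and 2.92% of all members. The median was 1.36, or 1.00 with values under 36 raised to 36, and for passage 14 over passage 13 it was -0.83. Of the 16 members 13 were above the minimum at passage 13 and 16 at passage 18. Over those above it on both arrays the median was 1.28. The summed intensity of the list was 25491 at passage 13 and 35075 at passage 18. Its defining genes were mostly dim: Pdgfra read 15.9 and 29.6, Lum 5.11 and 5.91 and Dcn 25.4 and 45.3 at passages 13 and 18, and of these Dcn alone passed the minimum, at passage 18. Col1a1 was the exception among the defining genes.

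Collagen chains made up much of that list and were examined over a list of 30 measured chains. Of 17 listed members 16 were higher at passage 18, and 8 were at least 2-fold higher against 0 lower, beside 3.84% and 2.92% of all members. The median was 0.77, or 0.85 over the chains above the minimum on both arrays. Of the 17 members 14 were above it at passage 13 and 17 at passage 18. For type I collagen, Col1a2 stood at 101, 15.9 and 318 at passages 13, 14 and 18 (3.16-fold higher), beside Col1a1 above. Col3a1, the type III chain, stood at 199, 203 and 776 (3.90-fold), and Col6a1, a chain of the microfibrillar type VI collagen, at 122, 53.5 and 552 (4.53-fold). The fibrillar chains Col5a1 (2.06-fold), Col5a2 (2.17-fold) and Col11a1 (2.77-fold) were also higher. The one lower member of the list was Col18a1, a basement membrane collagen, at 438, 578 and 258 (1.69-fold). Col23a1, a transmembrane collagen that the list left out, was lower too, from 46.1 at passage 13 to 19.6 at passage 18, and so at least 1.28-fold. Most of these chains were dimmer at passage 14 than at passage 13, and the list's median for that pair was -0.83.

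Of 17 members that process or crosslink collagen, 12 were higher with a median of 0.22. The procollagen C-proteinase enhancers Pcolce (459, 1068 and 1736, 3.78-fold) and Pcolce2 (224, 365 and 563, 2.51-fold) stood out among them, and both had passage 14 in between. Loxl1, a crosslinking oxidase, was at least 1.62-fold higher. Among 29 matrix glycoproteins and proteoglycans, 20 were higher and the median was 0.56, or 0.32 with values under 36 raised to 36. Of these 29, 24 were above the minimum at passage 13 and 28 at passage 18. The elastic-fibre protein Fbln5 stood at 301, 109 and 952 (3.16-fold), the glypican Gpc6 at 233, 362 and 710 (3.04-fold) and the syndecan Sdc2 at 718, 780 and 1975 (2.75-fold). Sdc1 was 2.12-fold higher, Postn at least 1.47-fold and Ccn5 at least 1.84-fold, and Ccn3 (300, 592 and 130) was 2.32-fold lower.

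The basement membrane list had 13 of 14 members higher with a median of 0.41, led by Nid2, a nidogen that links laminin and collagen IV (141, 85.3 and 414, 2.95-fold), and the laminin chains Lamb3 (2.43-fold) and Lama2 (2.08-fold). Among 22 matrix proteases and their inhibitors 8 were at least 2-fold higher and 2 lower, beside 3.84% and 2.92% of all members, with a median of 0.39. Adamts12 was 3.18-fold, tissue plasminogen activator (Plat) 3.09-fold, Mmp23 2.63-fold, Adamts1 2.45-fold, the gelatinase Mmp2 2.43-fold, Adamts5 2.16-fold, Mmp16 2.15-fold and Adam12 2.03-fold higher. The inhibitor Timp1 (2988, 1493 and 1002, 2.98-fold) and urokinase (Plau; 2870, 3573 and 1331, 2.16-fold) were lower. Plat and Plau activate the same substrate, plasminogen, and differed in opposite directions.

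The hyaluronan list, with 11 members and a median of -0.04, held Cemip and Lyve1 and also the synthase Has2, which stood at 130 at passages 13 and 14 and at 480 at passage 18 (3.69-fold higher). Has2, a gene of synthesis, and Cemip, a gene of breakdown, were higher, and the receptor Lyve1 lower. Over the whole list 5 members were higher and 6 lower. At least 2-fold higher were 2 and lower 2, beside 3.84% and 2.92% of all members. Among 15 cadherins, Cdh2 (N-cadherin; 998, 536 and 2066, 2.07-fold) and Pcdh18 (61.5, 76.1 and 219, 3.56-fold) were higher beside Cdh11. Of 12 integrins, Itgb5 was 2.51-fold higher and Itga4 2.14-fold lower, with a median of -0.37.

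Contractile and mural markers were mixed. Of 13 members 8 were higher, 4 at least 2-fold (2 with values under 36 raised to 36) beside 3.84% of all members, and the median was 0.04. Smooth muscle actin (Acta2) stood at 1467, 308 and 5289 at passages 13, 14 and 18, 3.61-fold higher at passage 18, while transgelin (Tagln), another contractile protein, stood at 4535, 619 and 1756, 2.58-fold lower. Both were lowest at passage 14. Pdgfrb, the platelet-derived growth factor receptor of mural cells, was 2.65-fold higher (77.9, 66.0 and 206), Cnn1 at least 1.19-fold and Notch3 at least 1.82-fold. The mural markers Rgs5 (11.3 and 14.0) and Myh11 (13.3 and 16.2) were under the minimum at passages 13 and 18, as was Des at passage 18 (43.2 and 30.3).

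Transcription factors known from mesenchymal transition were higher in 12 of 14 members, 6 of them at least 2-fold (5 with values under 36 raised to 36) beside 3.84% of all members, and the median was 0.56. The forkhead factor Foxc1 stood at 72.1, 52.2 and 307 at passages 13, 14 and 18 (4.26-fold), the homeobox factor Prrx1 at 136, 344 and 457 (3.36-fold) and the zinc finger factor Snai2 at 1009, 533 and 2438 (2.42-fold). Twist1 and Twist2 were each 2.71-fold higher, and Sox9 at least 1.96-fold. With second-brightest probe sets the median was 0.17. Of the 14 members 12 were above the minimum at passage 13 and 14 at passage 18.

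Receptors and ligands that act between cells followed. In the PDGF and FGF list 7 of 20 members were at least 2-fold higher, beside 3.84% of all members (median 0.63): Spry1, a feedback inhibitor, 3.67-fold (50.4, 24.4 and 185), Fgfr2 at least 3.32-fold, the collagen receptors Ddr1 2.77-fold and Ddr2 2.05-fold, the ligands Fgf2 at least 2.5-fold and Fgf18 2.25-fold, and Pdgfrb. Pdgfb, a ligand of Pdgfrb, was at least 1.10-fold lower (39.5, 84.5 and 10.1). In the Wnt list 6 of 21 members were at least 2-fold higher, or 5 with values under 36 raised to 36, beside 3.84% of all members (median 0.46): besides Fzd2 and Rspo2 these were Rspo3 (57.3, 15.8 and 248, 4.33-fold), the secreted Dkk3 (3.10-fold), the receptor Fzd1 (2.16-fold) and the antagonist Sfrp2 (at least 1.68-fold), while Fzd9 was at least 1.29-fold lower.

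Of 32 members of the TGF-beta and BMP list, the receptor Bmpr1a (575, 411 and 1893, 3.29-fold), Id4 and the activin subunit Inhbb (131, 30.2 and 316, 2.41-fold) were higher. Tgfb1, the ligand, stood at 101 at passages 13 and 14 and at 36.6 at passage 18 (2.76-fold lower), and the median of the list was 0.11. Notch2 was 2.65-fold higher (572, 375 and 1519) in the Notch list, whose median was 0.19. Among 35 guidance genes the median was 0.00, with Sema3c (191, 150 and 703, 3.69-fold) and Ephb3 (2.78-fold) higher and Sema5a at least 1.96-fold higher.

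Hox genes, which record position along the body, were higher in 13 of 15 members, 6 at least 2-fold (5 with values under 36 raised to 36) beside 3.84% of all members, with a median of 0.62. Of the 15 members 11 were above the minimum at passage 13 and 15 at passage 18. Over those above it on both arrays the median was 0.39. Hoxa9 stood at 10.8 at passage 13, 252 at passage 14 and 85.6 at passage 18 (at least 2.38-fold higher), and Hoxa10 at 50.7, 181 and 244. Hoxa5 was at least 2.63-fold, Hoxc10 at least 1.62-fold, Hoxa3 2.46-fold and Hoxb6 2.20-fold higher. Passage 14 was also above passage 13 for Hoxa9, Hoxa10, Hoxa5 and Hoxa3, and the list's median for that pair was 0.34. The SOX and forkhead families held further steps: Sox11 at 107, 6.15 and 485 (4.55-fold) and Foxp2 (3.31-fold) were higher, and Sox12 was 2.41-fold lower.

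**Figure D3:**
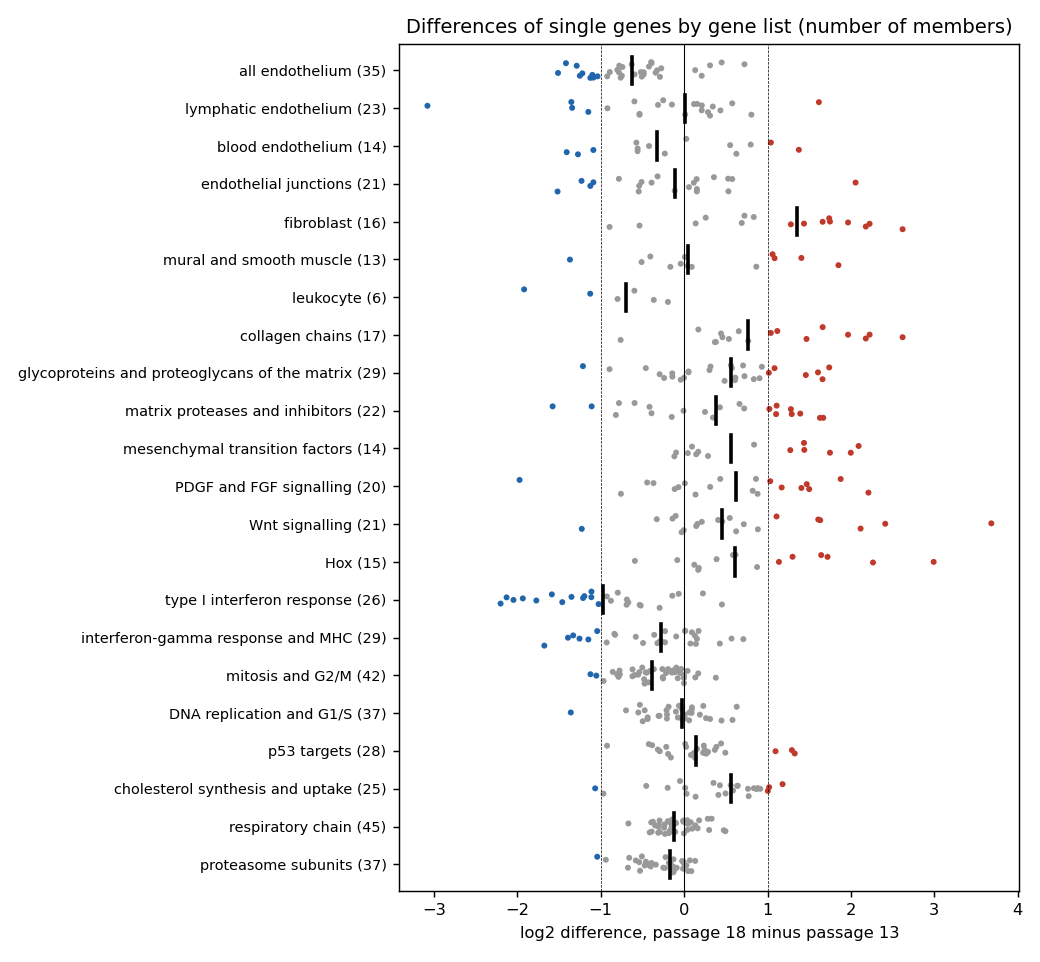
Each point is 1 member's log2 difference, passage 18 minus passage 13, arranged by gene list with the number of members in brackets; bars are list medians, dashed lines 2-fold, and colour marks genes past 2-fold. The fibroblast list (median 1.36) and the type I interferon list (median -0.98) have the medians furthest from 0 among the lists drawn.

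Interferon-stimulated genes were lower. Interferons switch on antiviral genes, many of which carry the interferon-stimulated response element in their promoters, a pair of GAAA blocks a few bases apart. Of 31 measured genes of the type I interferon list 26 were members, 24 had the lower value at passage 18, and 13 were at least 2-fold lower against 0 higher, beside 2.92% and 3.84% of all members. The median was -0.98, and for passage 14 over passage 13 it was 0.52. The summed intensity was 27705 at passage 13 and 17939 at passage 18.

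Promoters of 4 of the lower genes are shown because they carry the element in the 250 bases before the annotated start. They are from RefSeq (GRCm38.p6) and written 5' to 3' on the gene's strand, with matches to GAAANNGAAA or its reverse complement TTTCNNTTTC in capitals. Rsad2 lies at chr12:26456453-26456702 on the minus strand, Oas3 at chr5:120777660-120777909 on the minus strand, Ifit3 at chr19:34583279-34583528 and Ifit1 at chr19:34640639-34640888, both on the plus strand.
Rsad2: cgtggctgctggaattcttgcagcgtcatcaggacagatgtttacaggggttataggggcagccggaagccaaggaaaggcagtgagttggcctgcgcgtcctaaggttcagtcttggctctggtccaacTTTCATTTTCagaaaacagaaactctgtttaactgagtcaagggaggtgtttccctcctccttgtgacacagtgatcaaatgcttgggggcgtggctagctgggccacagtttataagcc
Oas3: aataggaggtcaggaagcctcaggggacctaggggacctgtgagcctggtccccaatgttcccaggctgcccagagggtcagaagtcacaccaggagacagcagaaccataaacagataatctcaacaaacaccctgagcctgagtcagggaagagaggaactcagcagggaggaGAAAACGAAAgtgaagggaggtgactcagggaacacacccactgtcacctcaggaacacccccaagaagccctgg
Ifit3: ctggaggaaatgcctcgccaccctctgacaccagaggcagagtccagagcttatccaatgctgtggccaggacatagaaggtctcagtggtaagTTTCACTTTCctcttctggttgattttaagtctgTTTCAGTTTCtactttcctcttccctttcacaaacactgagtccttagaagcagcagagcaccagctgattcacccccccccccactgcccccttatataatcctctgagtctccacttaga
Ifit1: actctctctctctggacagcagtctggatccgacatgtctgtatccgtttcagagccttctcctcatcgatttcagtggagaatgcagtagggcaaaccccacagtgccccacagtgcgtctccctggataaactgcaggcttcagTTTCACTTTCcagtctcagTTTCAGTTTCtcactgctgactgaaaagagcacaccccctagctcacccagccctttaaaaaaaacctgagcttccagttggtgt
The match begins 120 bases before the start in Rsad2 and 75 in Oas3, and the 2 matches begin 156 and 122 bases before it in Ifit3 and 104 and 85 in Ifit1.

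The pattern was searched on both strands in that 250-base window, and overlapping matches were counted. It was found in 936 of 27025 genes with a promoter in the table (3.46%), in 264 of 8679 members (3.04%), in 11 of 295 genes at least 2-fold higher (3.73%) and in 15 of 233 at least 2-fold lower (6.44%). Of the type I interferon list, 20 of 26 members had a promoter and 8 held it, and of the 13 genes at least 2-fold lower, 9 had a promoter and 6 held it. A match is a description of these letters and not evidence of binding.

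Among the genes whose promoters are printed, Rsad2 (viperin, an antiviral radical SAM enzyme) stood at 965, 1906 and 221 at passages 13, 14 and 18. Ifit3, which binds Ifit1 in antiviral complexes, stood at 2513, 3517 and 736 (3.41-fold lower), and Ifit1, which binds viral RNA, at 1308, 1726 and 571 (2.29-fold). Oas3, an RNA-sensing oligoadenylate synthetase, stood at 170, 393 and 44.6. In all these genes passage 14 was highest and passage 18 lowest. Cmpk2, the genomic neighbour of Rsad2, stood at 344, 609 and 75, and the nucleic acid sensor Zbp1 at 267, 559 and 64.6, in the same order.

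The others past 2-fold were Rtp4 (3.00-fold), Oasl2 (2.75-fold), the ISG15 protease Usp18 (2.55-fold), Parp14 (2.32-fold), Oas1a and the tethering protein Bst2 (2.16-fold each) and Xaf1 (2.03-fold). Ifi27 (517, 264 and 707) and Lgals3bp (847, 1088 and 991) had the higher value at passage 18, by 1.37-fold and 1.17-fold, and another probe set of Ifi27 pointed the other way. In the interferon-gamma and MHC list, 6 of 29 members were at least 2-fold lower (5 with values under 36 raised to 36) and 0 higher, beside 2.92% and 3.84% of all members, with a median of -0.28 that turned to 0.04 with second-brightest probe sets. The immunity-related GTPase Iigp1 stood at 637, 1226 and 199 (3.20-fold), and Gbp6 (2.62-fold), Irgm2 (2.39-fold), the class II chain H2-Ab1 (2.51-fold), the immunoproteasome subunit Psmb8 (2.06-fold) and Irf8 (at least 1.63-fold) were lower too. B2m, the light chain of MHC class I, was nearly level at 10610, 9762 and 11600.

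**Figure D4:**
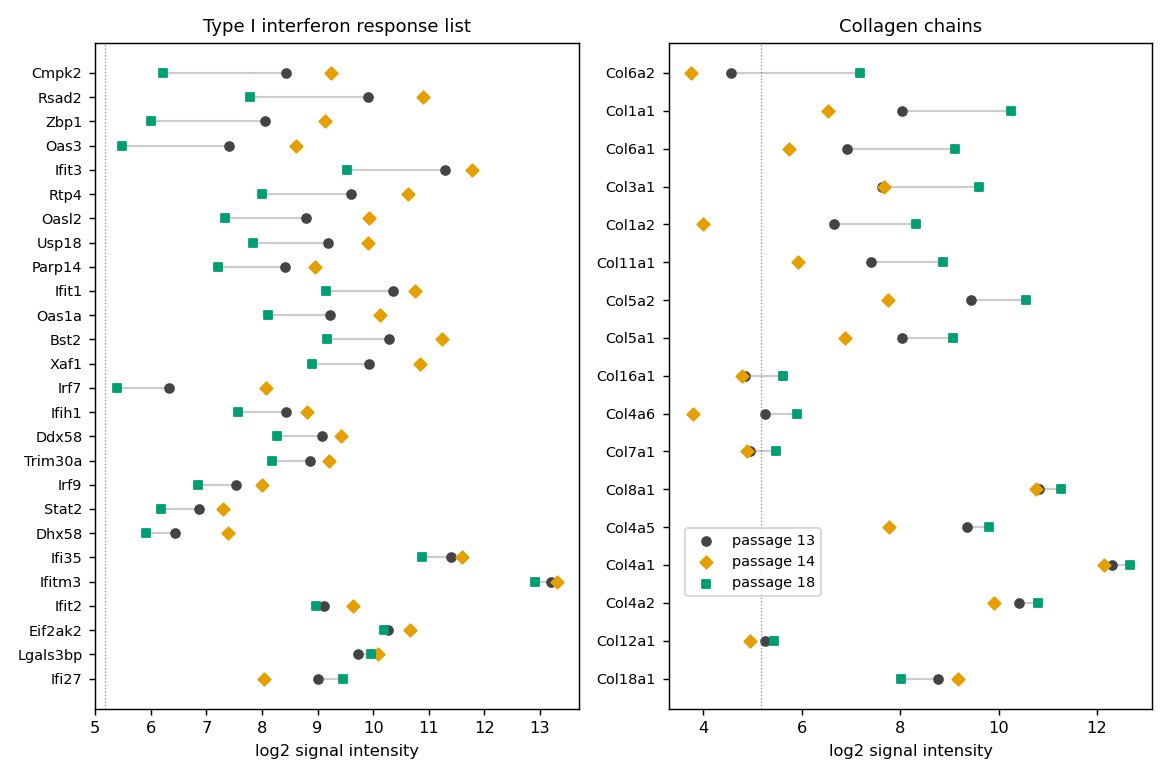
Log2 signal intensity of the 26 members of the type I interferon list (left) and of the 17 listed collagen chains (right) in each culture, ordered by the difference between passages 18 and 13, with the minimum (log2 5.17) dotted. Passage 18 lies below passage 13 for 24 of the 26 interferon genes and above it for 16 of the 17 listed collagens.

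Other immune genes were mixed. The chemokine Ccl2 stood at 1090, 2268 and 406 at passages 13, 14 and 18 (2.68-fold lower) and Cxcl16 at 563, 200 and 267 (2.11-fold lower), while Cxcl12, the ligand of Cxcr4, stood at 923, 632 and 2018 (2.19-fold higher). The median of their list was 0.23. No member of the 22 in the Toll-like receptor and NF-kB list was past 2-fold in either direction, beside 6.76% of all members. The median of that list was -0.25. Of vasoactive genes, the adrenomedullin, endothelin and apelin list had 13 members, 4 higher and 9 lower, with a median of -0.39. With values under the minimum raised to it, that median was -0.15. At least 2-fold lower were 5 members (3 with raised values) and at least 2-fold higher 1, beside 2.92% and 3.84% of all members. The ligand Edn1 (1518, 1280 and 682) was 2.22-fold lower. The clearance receptor Npr3 (554, 374 and 1617), 2.92-fold higher, was the 1 member past 2-fold upwards. The cyclooxygenase Ptgs2 (1235, 411 and 501) was 2.47-fold lower.

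Of 42 members of the mitosis list 38 had the lower value at passage 18, with a median of -0.38. Only 2 were at least 2-fold lower (4.76%), near the 2.92% of all members. Ttk, a spindle checkpoint kinase, stood at 107, 189 and 49.2 (2.18-fold), and Ube2c, a ubiquitin-conjugating enzyme of mitotic exit, at 1383, 3277 and 667 (2.07-fold). Mki67 (219, 652 and 158) and Cdk1 (524, 1105 and 304) were lower by 1.39-fold and 1.72-fold. Passage 14 was the highest of the cultures for these 4 genes, and its median over passage 13 was 1.23. The replication list had 15 members higher and 22 lower with a median of -0.03, and Tk1 was the one gene past 2-fold (132, 377 and 51.4, 2.56-fold lower).

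Of 28 p53 targets 20 were higher, 3 at least 2-fold beside 3.84% of all members, with a median of 0.14. The death receptor Fas stood at 279, 107 and 699 (2.51-fold), the stress gene Sesn1 at 260, 139 and 637 (2.45-fold), and Gadd45b at 176, 83.9 and 375 (2.14-fold). The best-known targets moved little: Cdkn1a (p21) read 2585, 2452 and 3027 and Mdm2 5099, 3947 and 4395.

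Cholesterol synthesis and uptake genes were higher in 20 of 25 members, 3 of them at least 2-fold beside 3.84% of all members, with a median of 0.56. The lipid desaturase Scd2 (1334, 1590 and 3023) was 2.27-fold, and the sterol enzymes Msmo1 (442, 270 and 896) 2.03-fold and Cyp51 (487, 311 and 976) 2-fold higher. Hmgcs1 (1038, 702 and 1954) was 1.88-fold higher and Ebp (315, 219 and 151), another enzyme of the pathway, 2.09-fold lower. Glycolysis and hypoxia genes were lower in 16 of 23 members (median -0.34), none of them by 2-fold, beside 2.92% of all members. The hexokinase Hk2 was 2.06-fold higher. Respiratory chain genes had a median of -0.12 over 45 members, mitochondrial ribosomal proteins -0.14 over 76 and proteasome subunits -0.17 over 37, and cytosolic ribosomal proteins -0.03 over 44.

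Markers of other cell types that a sort could have let through were set beside these results. Of 18 measured leukocyte genes 6 were members and all had the lower value at passage 18 (median -0.70), with a summed intensity of 825 at passage 13 and 528 at passage 18. Cd53 (244, 121 and 64.6, 3.78-fold) and Cd68 (127, 244 and 58.2, 2.18-fold) were past 2-fold, while Ptprc (11.5 and 10.2), Itgam (5.10 and 2.95) and Cd3e (7.10 and 6.88) were under the minimum on both arrays. The keratinocyte list, with 7 of 14 genes as members, summed to 1656 and 1499 with a median of -0.04. Krt14 and Cdh1 were under the minimum on both arrays, and Krt5 was above it on both, at 54.5 and 49.9. Of 18 nerve and Schwann cell genes 10 were members, 6 higher and 4 lower with a median of 0.50 and sums of 1980 and 1908. Sox10 was under the minimum on both arrays and Tubb3 read 252 and 381. Besides Nefl, Gap43 (280, 1718 and 106) was 2.65-fold and Uchl1 2.22-fold lower, and Syt1 was 2.30-fold higher. Of 8 adipocyte genes 3 were members, with sums of 5869 and 1976 that rest on Fabp4 (5659, 2011 and 1829, 3.09-fold lower), a fatty acid binding protein also found in endothelium, and Adipoq was under the minimum on both. For fibroblast and mural cells the sums were 25491 and 35075, and 25959 and 29155, as given with their markers above. The part of other cells in the differences was not tested.

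Differences also went by chromosome. Median differences over members ranged from -0.21 on chromosome 7 to 0.24 on chromosome 8. Of 602 members on chromosome 8, 72.9% had the higher value at passage 18, as did 74.1% of 378 on chromosome 19 (median 0.22), 69.9% of 538 on chromosome 3 (median 0.19) and 68.4% of 545 on chromosome 10 (median 0.17). On chromosome 7 the share was 29.4% of 766, on chromosome 14 28.3% of 346 (median -0.18) and on chromosome 9 33.8% of 598 (median -0.17). When the members of each chromosome were cut into 4 equal stretches in gene order, the stretch medians of each chromosome named here had one sign. On chromosome 7 they were -0.19, -0.21, -0.18 and -0.24, and on chromosome 8 0.32, 0.23, 0.23 and 0.19.

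Among bright genes, with a mean log2 intensity over 8, the medians were 0.29 on chromosome 8, 0.24 on chromosome 19 and -0.23 on chromosome 7. For passage 14 over passage 13 the medians of chromosomes 8 and 19 were -0.04 and -0.02, and the one furthest from 0 was -0.21 on chromosome 4. Subtracting each chromosome's median changed the SD over members from 0.537 to 0.519 and left 359 genes higher and 286 lower by at least 2-fold. Chromosome number was not measured in these files.

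**Figure D5:**
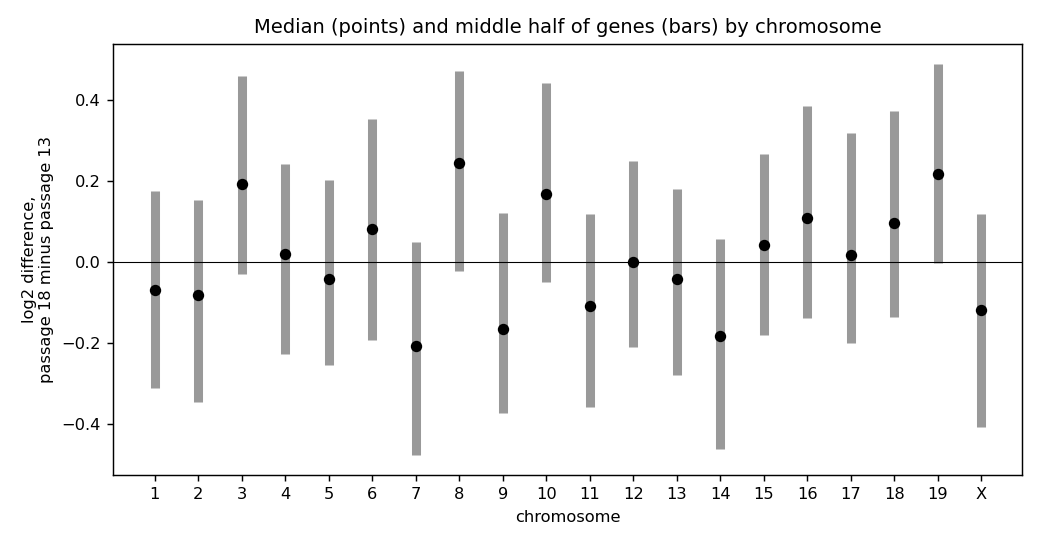
Median log2 difference, passage 18 minus passage 13, of the members on each chromosome (points) with the range between the quartiles (bars). Chromosome 8 has the highest median (0.24) and chromosome 7 the lowest (-0.21), and the bars of single chromosomes are wider than the distance between their medians.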

How the data were processed

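Biotin-labelled cDNA of the passage 13, 14 and 18 cultures, 1 each, was hybridised to 1-colour arrays after 1 round of linear isothermal amplification, per the labels' protocols. The deposited table holds 1 linear signal intensity per probe set and array; of the authors' steps, the submitters' processing notes name MAS5, with its role and version not given in the sources used here. No genome build is named for these values. As the arrays' medians and upper percentiles were alike, no further normalization was applied.

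Of 45101 probe sets, 64 were controls, 34958 had 1 gene in the platform annotation, 932 several and 9211 none. Symbols were updated through Entrez identifiers to RefSeq GRCm38.p6 (34741 matched). Intensities were taken to log2 with no pseudocount. The brightest single-gene probe set stood for each gene, and 2983 members rest on a probe set type open to cross-hybridisation. No detection calls were used, and the minimum was set at 36. Of 41 measured genes restricted to other tissues, 4 were above it at passage 13 and 4 at passage 18. A call means at least 2-fold, with no test.

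The members and gene lists were chosen with earlier results of these data known. The genes named are the 15 largest differences in each direction among genes above 36 on both arrays, the 10 brightest in each direction among genes at or under 36 on the other array, the 4 markers, genes past 2-fold in each list (the leading ones of long lists) and genes that define a list. Samples were grouped by their labelled passage. The scripts, in python 3.11.15 with pandas 2.3.3, numpy 2.4.6 and matplotlib 3.10.9, were tested on simulated data. The number of arrays limits the precision. Alternatives covered the probe set, the minimum, the scaling, the pseudocount and the reference culture.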

Additional observations from a re-analysis of the deposited data

How the results depend on the processing

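Both counts of genes past 2-fold, the medians of 15 gene lists and the differences of 50 named genes were recomputed under 12 alternatives, 11 of them planned and 1, the subtraction of chromosome medians, chosen after seeing the data. A median or difference was taken as kept within 0.266 on the log2 scale, the spread between probe sets of 1 gene. That is a spread of single genes, so it is a wide limit for list medians. Within it, lymphatic endothelium was -0.21 with the median of probe sets. Over genes above 36 on both arrays, Hox was 0.39 and the PDGF and FGF list 0.43. With second-brightest probe sets, over fewer genes, the counts were 203 higher and 123 lower. With 16 added before the log2, 275 were higher and 205 lower. Against the mean of passages 13 and 14, 582 were higher and 371 lower. With quantile normalization the counts were 399 and 322.

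List medians moved or turned as follows, and the cause was not tested. With second-brightest probe sets, blood endothelium was 0.38, collagen chains 1.24, matrix proteases 0.77, mesenchymal transition factors 0.17 and the interferon-gamma list 0.039. With the median of probe sets, collagen chains were 1.11 and proteases 0.66. Without probe sets open to cross-hybridisation, lymphatic endothelium was -0.28, blood endothelium 0.027 and the PDGF and FGF list 0.22. With no minimum, blood endothelium was -0.019, fibroblast 0.80, proteases 0.056, PDGF and FGF 0.26 and Hox 0.29. With values raised to 36 the fibroblast median was 1.00, and with a minimum of 72 the collagen median was 1.12. Against the mean of passages 13 and 14, collagen chains were 1.38, the type I interferon list -1.44, mitosis -0.95, replication -0.32 and Hox 0.27.

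Of 547 values for named genes, 437 were kept, 110 moved and 0 turned. Under no minimum (50 kept), a minimum of 72 (50) and above 36 on both arrays (30) a gene's difference cannot change. Median centring (50 kept) shifted all differences alike, as Lyve1 from -3.077 to -3.097. The chromosome medians subtracted (50 kept) ran from -0.21 to 0.24. Both shifts lie within 0.266, so no value could count as moved there either. With second-brightest probe sets 12 were kept and 18 moved, as Fzd2 did from 2.41 to 0.68. Against the mean of passages 13 and 14, 15 were kept and 35 moved, as Stfa3 did from -2.41 to -0.48. The named genes were chosen from these data by size or brightness, so 0 turned is a weak check. No paired analysis was possible because each passage has 1 culture, and leaving out a culture leaves no comparison. Dim values limit the folds: 131 higher and 82 lower genes had a dim side under 36.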

Other observations

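Some genes outside the groups described so far also differed. Serpinb1a, an inhibitor of neutrophil proteases, stood at 292, 280 and 1188 at passages 13, 14 and 18 (4.06-fold higher at passage 18 than at passage 13). The imprinted zinc finger gene Peg3 stood at 785, 2726 and 2525 (3.22-fold higher), so passages 14 and 18 were both above passage 13, and the imprinted Nnat was at least 2.17-fold higher. Of 15 members of the imprinted list 11 were higher and 4 lower, with a median of 0.31. At least 2-fold higher were 2 and lower 1, beside 3.84% and 2.92% of all members. The sphingosine-1-phosphate receptors S1pr2 (55.2, 40.2 and 168, 3.04-fold) and S1pr3 (56.2, 48.2 and 123, 2.19-fold) were higher, as were the YAP target Ankrd1 (2.69-fold) and the small heat shock protein Hspb8 (2.19-fold). Ankrd1 was the 1 gene past 2-fold among 21 YAP and TEAD targets (4.76%, median -0.0013). Hspb8 was the 1 among 17 heat shock genes (5.88%, median 0.05). Of all members 3.84% were at least 2-fold higher. Rpl12 (165, 72.3 and 60.2) was 2.74-fold lower, the largest step down among the 44 cytosolic ribosomal proteins, whose median was -0.03. No olfactory or vomeronasal receptor among 69 measured was above the minimum at passage 13 or 18.

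Genes past 2-fold sometimes lay side by side. Of 10638 pairs of members that neighbour each other on a chromosome, both genes were past 2-fold in 78 pairs (0.733%), in the same direction in 65. The 0.733% is a share of pairs, so it cannot be set against the 6.76% of single members past 2-fold. The share of pairs that unrelated neighbours would give was not computed. Some pairs are of 1 gene family, and shared probe signal between them was not tested. Examples are Col6a1 with Col6a2 and Hoxa9 with Hoxa10, higher, and Rsad2 with Cmpk2 and Plvap with Bst2, lower. In the Gimap cluster, Gimap4 (2.04-fold), Gimap6 (2.51-fold), Gimap1 (2.5-fold) and Gimap5 were lower. Alox5ap and its neighbour Medag (log2 difference 1.67) differed in opposite directions. Alox5ap stood at 50.8 at passage 13 and 11.1 at passage 18, and so was at least 1.41-fold lower (log2 difference -2.19 as read).

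Probe sets without a single gene name behaved alike in number. Of 10092 such probe sets 1941 were above the minimum, of which 61 (3.14%) were at least 2-fold higher and 55 (2.83%) at least 2-fold lower.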
